A study of Bos indicus x Bos taurus with 45 samples.

Results

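The miR-25 family is a group of microRNAs (miRNAs, short RNAs that bind messenger RNAs and lower their translation and stability) made up of bta-miR-25, bta-miR-32, bta-miR-92a, bta-miR-92b and bta-miR-363, where bta stands for cattle. They were chosen by name, any arm of the hairpin precursor counted. The rule used no measured value, but earlier results of these data were known when it was set. Of the 603 miRNA names that the 4 tissue tables list between them, 8 belong to the family. The 5 guide strands, the arms that are loaded for repression, were listed in all 4 tables. The 3 passenger strands were bta-miR-32-3p, listed in kidney, liver and tongue, and bta-miR-25-5p and bta-miR-92a-1-5p, listed in liver alone.

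The 5 guide strands share a seed, bases 2 to 8 of the mature miRNA, through which a miRNA recognises its targets, so they are thought to act on overlapping sets of messenger RNAs. In human and mouse the members are cut from several primary transcripts. miR-25 lies with miR-106b and miR-93 in an intron of MCM7, a gene of DNA replication. miR-92a is made from the miR-17-92 cluster and from its copy on the X chromosome, the miR-106a-363 cluster, which also holds miR-363. miR-32 lies in an intron of TMEM245, and miR-92b stands apart from these clusters. The family is known for targets that restrain growth and survival, among them BCL2L11 (BIM), and in human cells miR-25 and miR-92b have been tied to CDKN1C, the cell-cycle inhibitor altered in some children with Beckwith-Wiedemann syndrome.

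Small RNA was sequenced from tissues of bovine fetuses (Bos indicus x Bos taurus) at about day 105 of gestation, in 45 libraries. LOS fetuses were conceived by assisted reproduction (ART) and had large offspring syndrome, an overgrowth condition of ruminants that resembles Beckwith-Wiedemann syndrome. ART fetuses were also conceived by assisted reproduction, by steps not given in the sources used here, and were healthy, and control fetuses came from artificial insemination and were healthy. Liver had 4 LOS, 4 ART and 5 control fetuses, kidney and skeletal muscle 4 LOS and 4 control fetuses each, and tongue 7 LOS and 9 control fetuses, of both sexes. RNA came from frozen tissue with all its cell types, so fewer cells of a type and less of a miRNA per cell cannot be told apart.

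Reads assigned to listed miRNAs ranged between 3379816 and 4976770 per library in liver and between 6132982 and 9170756 in kidney. Muscle libraries had 4744968 to 6456252 and tongue libraries 9357833 to 13822348 such reads. Marker miRNAs were abundant in their tissues. miR-122 of hepatocytes averaged 18076 CPM in liver, and miR-133a of striated muscle averaged 14639 CPM in skeletal muscle and 15697 CPM in tongue. miR-10a averaged 116935 CPM in kidney and at most 3454 CPM in the other tissues. miR-10b averaged 291603 CPM in kidney but also 93558 CPM in muscle and 25515 CPM in tongue, so it does not mark kidney alone. miR-205 of squamous epithelium averaged 3063 CPM in tongue. CPM here are a miRNA's counts relative to the listed reads of its library (the usual CPM unit), scaled by the TMM factors of edgeR within each tissue. 1 tongue library, control 4, stood apart in the make-up of the family, and its values are described with the tongue results.

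miR-92a was the main member everywhere and miR-25 came next. The family held 5.42% to 7.16% of listed reads in liver libraries, 2.11% to 2.51% in kidney, 1.31% to 1.91% in muscle and 0.946% to 1.42% in tongue. The 95% Wilson interval of any of these shares was at most 0.0529 percentage points wide, which covers counting error only. miR-92a made up 84.4% to 86.6% of the family's reads in liver, 77.7% to 79.3% in kidney, 79.9% to 83.6% in muscle and 63.1% to 74.5% in tongue. By mean CPM it ranked 5 of 563 listed miRNAs in liver, 11 of 436 in kidney, 18 of 439 in muscle and 26 of 460 in tongue. miR-25 made up 12.04% to 13.9% of the family's reads in liver, 16.3% to 18.3% in kidney, 14.3% to 17.4% in muscle and 22.4% to 33.3% in tongue, the highest of these being tongue control 4. The precursor of miR-92a is given as mixed in the tables, since its identical copies in the 2 clusters cannot be told apart by reads. Each other member is assigned to 1 precursor.

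**Figure D1:**
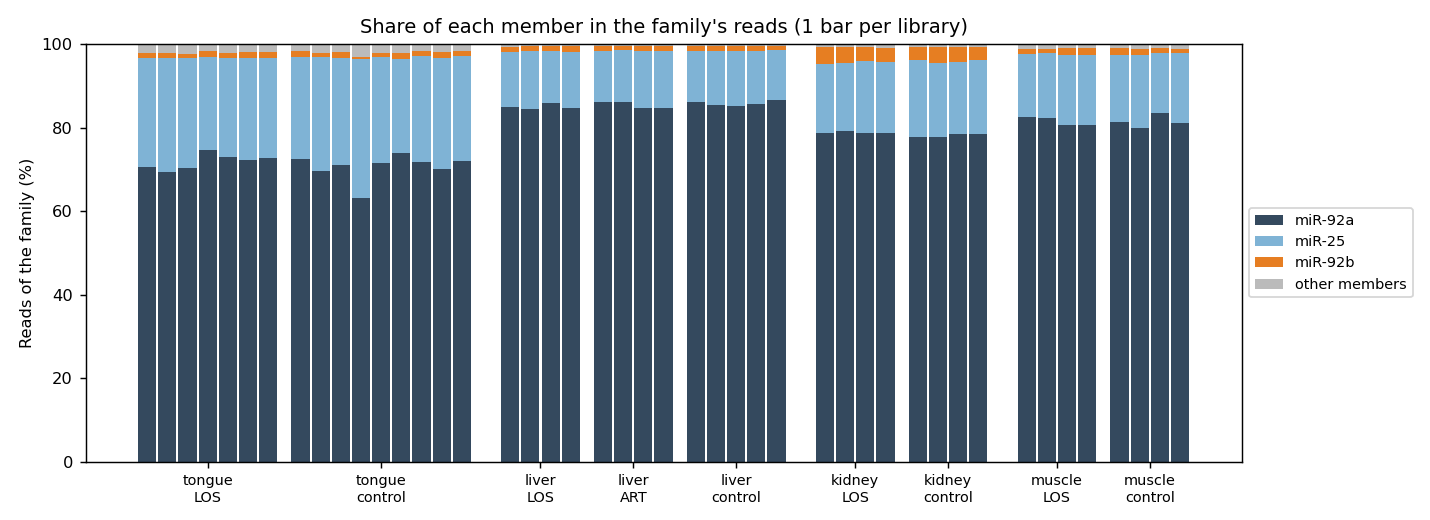
Share of miR-92a, miR-25, miR-92b and all other members in the reads of the family (percent, y axis), with 1 bar per library, grouped by tissue and by LOS, ART and control. miR-92a takes the largest part of every bar, between 63.1% and 86.6%, and the lowest of its bars is tongue control 4.

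The passenger strands were rare beside their guides. In the median liver library miR-25 had 295 times as many reads as bta-miR-25-5p, and miR-92a had 8016 times as many as bta-miR-92a-1-5p, the passenger of the copy in the miR-17-92 cluster. miR-32 had 31.7 times as many reads as bta-miR-32-3p in the median liver library, 25.6 times in kidney and 25.3 times in tongue. In liver the miR-32 precursor thus gave a larger share of passenger reads than the miR-25 precursor. The miR-92a ratio is not that of a single precursor, since its guide reads pool the copies of both clusters. With counts of 13 to 44 reads per library for bta-miR-92a-1-5p and 14 to 42 for bta-miR-32-3p in liver, these strands are measured with wide counting error.

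The first comparison asked how the members differ between tissues, with a number taken as 1 fetus across tissues, which the labels do not state outright. Controls 1 to 4 had a library in each tissue, and CPM were computed for it over the 374 miRNAs listed in all 4 tables. Their tongue libraries are labelled female, so this comparison covers females only if a number is 1 fetus across tissues. edgeR's quasi-likelihood test, blocked by fetus, called all 5 guide strands at an adjusted p under 0.05, against 98.7% of the 374 miRNAs, so a call here does not set the family apart. The processing notes of tongue name a tool, cutadapt, that those of the other tissues do not, so tongue and that difference cannot be told apart.

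miR-92a had 41972, 43562, 41852 and 40892 CPM in the livers of controls 1 to 4, against 22404, 21345, 24656 and 23201 CPM in their kidneys. Under the same numbers it had 16040, 14833, 19041 and 15722 CPM in skeletal muscle and 9265, 7593, 7765 and 5691 CPM in tongue. No 2 tissues overlapped, and the order was liver, kidney, muscle, tongue. On the log2 scale the liver stood 0.88 ± 0.11 (SE) above kidney, where the median of all miRNAs was at 0.24, and 1.36 ± 0.11 above muscle, where that median was at 0.10. Liver stood 2.48 ± 0.12 above tongue, with the median at 0.14. With control 4 left out, liver stood 2.37 above tongue. The adjusted p of these 3 differences was 3.28e-06, 3.32e-08 and 6.43e-11, and 86.6%, 85.3% and 85.3% of miRNAs were called in the same contrasts.

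miR-25 had the same order of means, with a smaller step than miR-92a between liver and kidney and between muscle and tongue and a larger one between kidney and muscle (0.70 for miR-25 and 0.48 for miR-92a on the log2 scale). Its mean was 6268 ± 322 CPM in liver, 5221 ± 251 in kidney, 3222 ± 48.4 in muscle and 2977 ± 137 in tongue (SD, n = 4 each). Tongue and muscle, neighbours in that order, did not differ beyond their spread by this fit (log2 difference -0.11 ± 0.07, adjusted p = 0.137), in a contrast where 64.7% of miRNAs were called. Without TMM factors the sign turned and the difference was called (0.24, adjusted p = 0.00825). The median of all miRNAs stood at 0.38 there and at 0.02 with the factors, and relative to it the difference was -0.14 in both. Leaving out the factors shifts all miRNAs of a library alike, so a value relative to the median hardly changes by construction. Such values, here and below, are no check on the scaling. The difference of liver over kidney, 0.26 ± 0.07 (adjusted p = 0.00169), was close to that of the median miRNA, at 0.24. It was not called with the RLE factors of DESeq2 (0.12, adjusted p = 0.0822) or without control 2 (0.19, adjusted p = 0.0627).

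miR-92b was highest in kidney, where controls 1 to 4 had 921, 1019, 1100.4 and 903 CPM. It had 526, 531, 552 and 533 CPM in their livers, 315, 265, 288 and 205.7 CPM in muscle, and 161, 121, 152 and 59.9 CPM in tongue, the last of these being control 4. Kidney stood 1.90 ± 0.19 above muscle and 3.05 ± 0.19 above tongue on the log2 scale (adjusted p = 4.47e-07 and 3.42e-09), in contrasts where 77.3% and 80.2% of miRNAs were called. Liver stood below kidney, by a log2 difference of -0.87 ± 0.18 (adjusted p = 0.000431). Without TMM factors that last difference was -0.03 (adjusted p = 0.885), with the median of all miRNAs at 1.08. Taken relative to the median miRNA it was -1.12 with the factors and -1.10 without, near-equal by construction. With control 4 left out of all tissues, kidney stood 2.81 above tongue (adjusted p = 4.42e-09) and liver 1.90 above it (adjusted p = 3.36e-08).

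miR-32 was also highest in kidney, at 193 ± 14.5 CPM, followed by liver at 165 ± 13.6, tongue at 130 ± 9.59 and muscle at 90.8 ± 8.21 CPM (SD, n = 4 each). The step between liver and kidney was small (-0.22 ± 0.09, adjusted p = 0.0306). It was no longer called without control 1, 3 or 4, with an adjusted p of 0.0754, 0.0792 and 0.157. Its sign turned without TMM factors (0.61, adjusted p = 2.74e-05), a setting that moved the median miRNA to 1.08. Relative to the median miRNA, the log2 difference of liver against kidney was -0.47 with TMM factors and -0.46 without, near-equal by construction.

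With TMM factors miR-363 was the 1 member with its highest mean in skeletal muscle, and without them tongue stood 0.03 above muscle. It had 120, 138, 123 and 121.5 CPM in the muscle of controls 1 to 4, 93.6, 105, 79.3 and 123 CPM in tongue, 72.7, 75.5, 74.3 and 61.0 CPM in liver and 25.3, 27.3, 31.8 and 29.6 CPM in kidney. Every muscle library thus exceeded every kidney and liver library, and kidney was lowest. Kidney against muscle gave a log2 difference of -2.14 ± 0.14 (adjusted p = 4.69e-09). Muscle and tongue overlapped only through tongue control 4. Their difference (tongue against muscle, -0.33 ± 0.13, adjusted p = 0.0375) was not called without control 1, 2 or 3. Without control 4 it was called, at -0.45 (adjusted p = 0.00859). With all controls kept it changed sign without TMM factors (0.03, adjusted p = 0.858), where the median miRNA stood at 0.38. Relative to the median miRNA, tongue against muscle with all controls kept was -0.35 with and without the factors, which are near-equal by construction. The differences of liver against muscle (-0.82 ± 0.13) and against tongue (-0.49 ± 0.13) were called with TMM factors and not without (-0.08 and -0.10), where the median of all miRNAs moved to 0.84 and 0.53. Relative to that median, both settings gave -0.92 against muscle, and against tongue -0.64 with the factors and -0.63 without, again by construction.

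**Figure D2:**
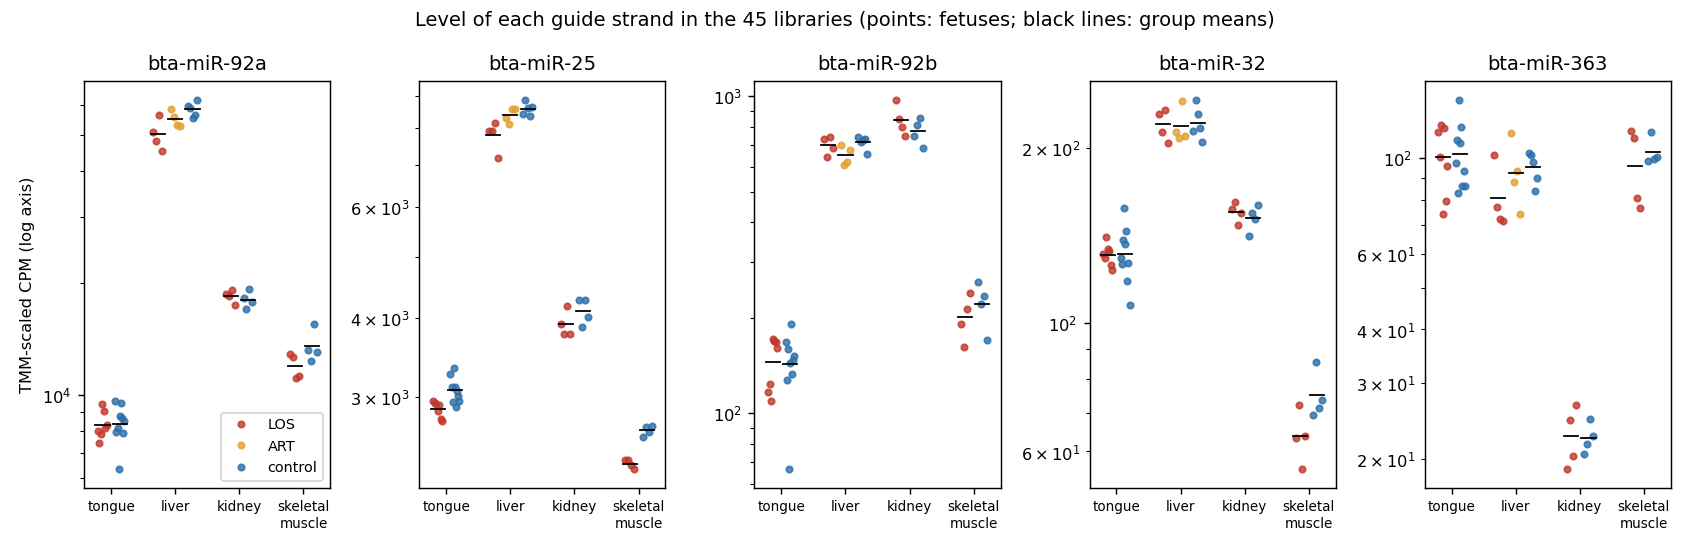
Level of the 5 guide strands in every library (CPM scaled by TMM within each tissue's table, log axis), by tissue and by LOS, ART and control, with a point per fetus and a black line at the group mean. miR-92a and miR-25 are highest in liver, and miR-363 is lowest in kidney, at 18.9 to 26.7 CPM. CPM of different tables are not on 1 scale, and the tests between tissues used the shared miRNAs instead.

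In liver, LOS fetuses had lower miR-92a and miR-25 than controls, with ART fetuses between them, but neither member passed the test across all miRNAs. The family as a whole held 5.95% ± 0.445 of listed reads in LOS, 6.37% ± 0.313 in ART and 6.81% ± 0.267 in control livers (SD, n = 4, 4 and 5). edgeR called 0 of 8 members for LOS against control, where it called 1.24% of the 563 miRNAs. At an unadjusted p under 0.05 there were 2 of 8 members, miR-92a and miR-25, and 14% of all miRNAs. The Wald test of DESeq2 called the same pair and 3.55% of all miRNAs.

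miR-92a had 50801, 48156, 56492 and 45079 CPM in LOS livers 1 to 4, against 58424, 55828, 53013 and 52790 CPM in ART livers and 59578, 58773, 55267, 56450 and 62085 CPM in control livers. LOS livers 1, 2 and 4 lay below every control and every ART liver, while LOS 3 lay among them. The log2 difference of LOS against control was -0.22 ± 0.06 with an adjusted p of 0.107 by edgeR over all miRNAs. By DESeq2 the adjusted p was 0.0273. Without LOS 3 the difference was -0.28 and edgeR called it (adjusted p = 0.0148), and without ART 1, which enters the shared estimate of the spread, it was -0.24 (adjusted p = 0.0461).

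miR-25 had 7916, 7919, 8155 and 7167 CPM in LOS livers, against 8281, 8113, 8560 and 8557 CPM in ART livers and 8412, 8871, 8596, 8369 and 8635 CPM in control livers. All 4 LOS livers lay below all 5 controls. Of all miRNAs, 2.13% had every LOS liver below every control. The log2 difference was -0.14 ± 0.04 (adjusted p = 0.138 by edgeR and 0.0349 by DESeq2).

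The other members showed smaller or less certain differences. miR-363 had 102, 77.1, 72.5 and 71.3 CPM in LOS livers, against 103, 102, 98.2, 84.2 and 89.8 CPM in control livers. LOS livers 2 to 4 were below every control and LOS 1 was among them (-0.24 ± 0.13, adjusted p = 0.432). miR-92b and miR-32 stood at -0.03 ± 0.06 and -0.01 ± 0.07. The passenger bta-miR-92a-1-5p had 30, 23, 28 and 25 reads in LOS, 13, 30, 17 and 27 in ART and 44, 30, 24, 30 and 32 in control livers. Its log2 difference was -0.51 ± 0.25 for LOS against control (adjusted p = 0.366). bta-miR-25-5p stood at -0.27 ± 0.19 and bta-miR-32-3p at 0.31 ± 0.17, both within the spread between fetuses by this test.

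ART livers without overgrowth were nearer to controls for miR-25 (-0.03 ± 0.04) and miR-92a (-0.09 ± 0.06). edgeR called 0 of 8 members and 0% of all 563 miRNAs for ART against control, DESeq2 called 0 members and 1.07% of all miRNAs. At an unadjusted p under 0.05 there were 2 of 8 members and 8.17% of all miRNAs. The members were miR-92b (-0.14 ± 0.06, adjusted p = 0.595) and bta-miR-92a-1-5p (-0.71 ± 0.25, adjusted p = 0.433). miR-92b had 703, 605, 620 and 678 CPM in ART livers, against 746, 717, 729, 736 and 659 CPM in controls, so the groups overlapped. miR-32 (-0.02 ± 0.07) had 241 CPM in ART 3, apart from the 207.9 to 214 CPM of the other ART livers. For LOS against ART, edgeR and DESeq2 called 0 of 8 members, against 2.66% of all miRNAs by edgeR and 4.8% by DESeq2. miR-25 was the 1 member with an unadjusted p under 0.05, as for 15.5% of all miRNAs (-0.11 ± 0.04, adjusted p = 0.254). Both comparisons with controls use the same 5 control livers.

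**Figure D3:**
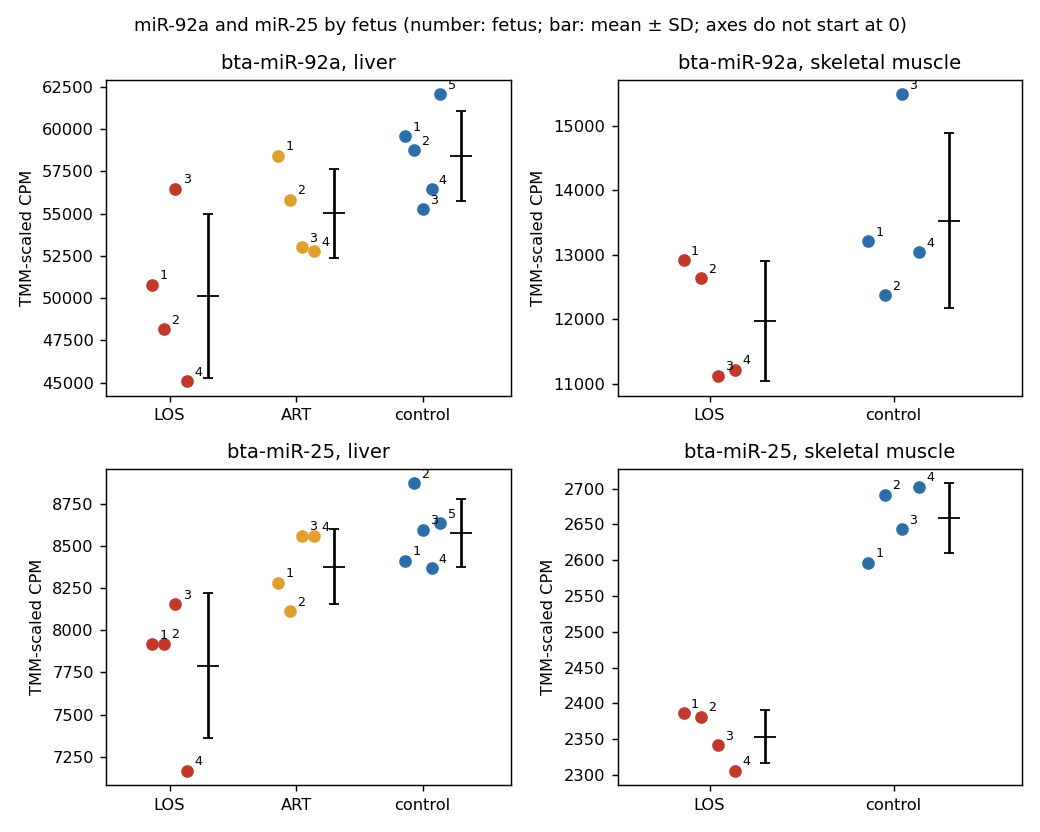
CPM (scaled by TMM within the table) of miR-92a and miR-25 in liver and skeletal muscle, with a point per fetus numbered as in the labels and a bar for the mean ± SD. For miR-25 all 4 LOS fetuses lie below all controls in both tissues. For miR-92a LOS 3 in liver and LOS 1 and 2 in muscle lie among the controls.

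Summed marker miRNAs of some cell types were also lower in LOS livers, and those of others were not. Over all miRNAs 266 of 563 were lower in LOS than in control livers. Of all miRNAs 1.24% were called and 14% had an unadjusted p under 0.05. White blood cell markers (7 listed, 6 of them lower in LOS, 0 called, 2 at an unadjusted p under 0.05) summed to 4964 to 5411 CPM in LOS, 5384 to 5702 CPM in ART and 5404 to 5937 CPM in control livers. miR-142-5p made up most of this sum, at 4274 CPM on average in liver. Hepatocyte markers (8 listed, 8 lower in LOS than in controls, 0 called, 4 at an unadjusted p under 0.05) summed to 151296 to 174450 CPM in LOS, 175969 to 190510 CPM in ART and 165458 to 185727 CPM in control livers. For LOS against ART 7 of 8 were lower and 1 was called, where 2.66% of all miRNAs were called. Most of the sum was miR-148a and miR-192, at 81475 and 68978 CPM on average in liver. Both were also abundant in kidney, at 12125 and 22261 CPM, and miR-122 averaged 18076 CPM in liver. Red cell precursor markers (5 listed, 2 lower in LOS, 0 called, 0 at an unadjusted p under 0.05), which include miR-451 and miR-486 of the blood-forming fetal liver, overlapped widely, at 55605 to 64798 CPM in LOS, 57995 to 64303 CPM in ART and 57634 to 67261 CPM in control livers. Endothelial markers (3 listed, 3 higher in LOS, 0 called, 0 at an unadjusted p under 0.05) summed to 13157 to 16637 CPM in LOS and 12991 to 15254 CPM in control livers. Epithelial markers (7 listed, 6 higher in LOS, 0 called, 1 at an unadjusted p under 0.05) summed to 756 to 893 CPM in LOS and 680 to 815 CPM in control livers. The part of cell make-up in the family's differences was not tested.

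In skeletal muscle all 5 guide strands stood lower in LOS than in controls, and edgeR called 0 of 5, as it did 0% of the 439 miRNAs. The median log2 difference of the 5 was -0.18, against -0.01 over all miRNAs, of which 232 of 439 were lower. At an unadjusted p under 0.05 there was 1 of 5 members, miR-25, and 13.2% of all miRNAs. DESeq2 called miR-25 and 3.87% of all miRNAs. miR-25 had 2386, 2381, 2341 and 2306 CPM in LOS muscle, against 2596, 2692, 2643 and 2703 CPM in control muscle. The groups did not overlap, as for 5.24% of all miRNAs in that direction, and both were tight. The difference was -0.18 ± 0.06 (adjusted p = 0.298 by edgeR and 0.0194 by DESeq2).

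miR-92a had 12912, 12634.5, 11122 and 11218 CPM in LOS muscle, against 13212, 12374.5, 15488 and 13037 CPM in control muscle, and LOS 1 and 2 lay among the controls (-0.18 ± 0.09, adjusted p = 0.405). miR-32 had 63.4, 72.2, 55.9 and 63.8 CPM in LOS muscle, against 69.3, 85.7, 71.2 and 73.6 CPM in control muscle. All LOS values except that of LOS 2 were below every control (-0.23 ± 0.12, adjusted p = 0.403). miR-92b (-0.14 ± 0.16) and miR-363 (-0.11 ± 0.15) differed by less than their error. miR-363 had 116, 112, 80.8 and 76.7 CPM in LOS muscle, against 98.7, 115, 99.8 and 101 CPM in control muscle, so LOS 1 and 2 were at or near the highest control and LOS 3 and 4 below the lowest. Over all 439 miRNAs 232 were lower and 207 higher in LOS muscle, 0% were called and 13.2% had an unadjusted p under 0.05. Skeletal muscle markers (9 listed, 7 lower in LOS, 0 called, 0 at an unadjusted p under 0.05) summed to 18385 to 21930 CPM in LOS and 19064 to 22131 CPM in control muscle. Endothelial markers (3 listed, 3 higher in LOS, 0 called, 1 at an unadjusted p under 0.05) summed to 9462 to 12913 CPM in LOS and 8687 to 9672 CPM in control muscle. Red cell markers (4 listed, 2 higher, 0 called, 0 at an unadjusted p under 0.05) summed to 36212 to 47751 CPM in LOS and 33202 to 40886 CPM in control muscle. Almost all of this sum was miR-486, which averaged 39332 CPM over all muscle libraries, while miR-451 averaged 110 CPM. The sum thus follows miR-486 and is not by itself a measure of blood content. The part of cell make-up in the differences of muscle was not tested.

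In kidney no member differed beyond the spread between fetuses. edgeR called 0 of 6 members and 0% of the 436 miRNAs, and DESeq2 called 0 members and 0.688% of all. At an unadjusted p under 0.05 there were 0 members and 7.57% of all miRNAs. miR-92a had 18720, 18441, 19104 and 17450.3 CPM in LOS kidneys, against 18181, 16969.9, 19202 and 17715 CPM in control kidneys (0.03 ± 0.06, adjusted p = 0.957). miR-25 had 3912, 3781, 4176 and 3777 CPM in LOS kidneys, against 4269, 3878, 4268 and 4022 CPM in control kidneys (-0.07 ± 0.07, adjusted p = 0.867). The groups overlapped for both. miR-92b stood at 0.12 ± 0.10, miR-32 at 0.04 ± 0.08 and miR-363 at 0.02 ± 0.13.

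In tongue, fitted with sex as a term, edgeR called 0 of 6 members and 0% of the 460 miRNAs, and DESeq2 called 0 members and 0% of all. miR-25 was the 1 member with an unadjusted p under 0.05, as for 5.43% of all miRNAs (-0.10 ± 0.04, adjusted p = 0.843), and its difference was -0.09 without tongue control 4. Its lowest, median and highest values were 2751, 2920 and 2957 CPM in 7 LOS tongues, against 2896, 3072 and 3336 CPM in 9 control tongues. Of the LOS tongues, 3 lay below every control. miR-92a had 7443, 8181 and 9481 CPM in LOS, against 6323, 8524 and 9633 CPM in control tongues (-0.01 ± 0.08, and -0.05 without tongue control 4). miR-32, miR-92b and miR-363 stood at -0.01 ± 0.07, 0.02 ± 0.15 and -0.02 ± 0.12, and without tongue control 4 at 0.03, -0.06 and 0.04.

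**Figure D4:**
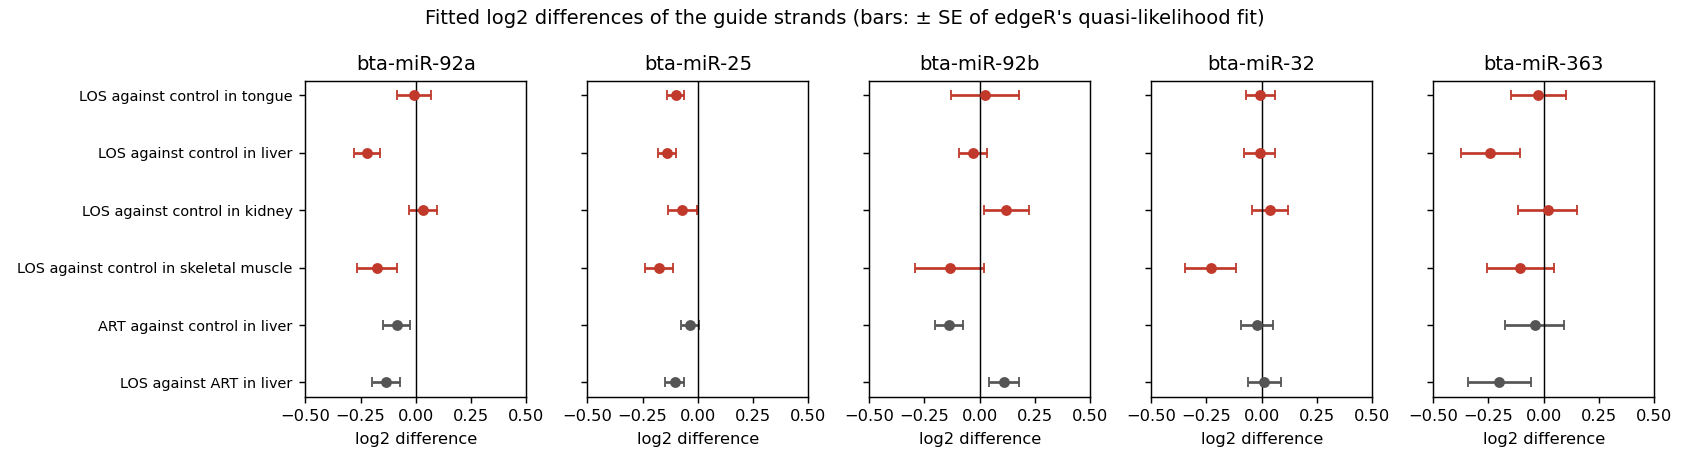
Log2 differences of the 5 guide strands with their SE from edgeR's quasi-likelihood fit, for LOS against control in 4 tissues (red) and for ART against control and LOS against ART in liver (grey). miR-25 lies below 0 in every comparison, between -0.03 and -0.18. None of the 30 values passed the adjusted threshold.

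The log2 difference of miR-25 in LOS was -0.14 in liver, -0.07 in kidney, -0.18 in muscle and -0.10 in tongue. The LOS libraries of different tissues came from fetuses with the same numbers, so these are not independent. Whether the effect of LOS differs between liver, kidney and muscle was tested in 1 model over 24 libraries, over the 389 miRNAs that these tables have in common, with each fetus as a block. edgeR called 0 of 5 guide strands for such a difference, against 1.29% of all miRNAs. miR-32 and miR-92a had an unadjusted p under 0.05, as did 18.8% of all miRNAs, and both had an adjusted p of 0.207. For miR-92a the effect was lower in liver than in kidney by a log2 difference of -0.28, and in muscle than in kidney by -0.27.

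Sex was given for tongue alone, and miR-363 and a copy of miR-92a are X-linked in mammals. Tongue controls 1 to 5 and LOS 1 to 4 were female and the other tongue libraries male. If a number is 1 fetus across tissues, the LOS and control fetuses of liver, kidney and muscle were thus female. The sex of ART fetuses is not given. edgeR called 0 of 6 members and 0% of all miRNAs for male against female tongues, and DESeq2 called 0 members and 0% of all. At an unadjusted p under 0.05 there were 0 members and 13.5% of all miRNAs. miR-363 averaged 96.8 ± 15.5 CPM in 7 males and 105 ± 18.96 CPM in 9 females (-0.12 ± 0.12, adjusted p = 0.691). miR-92a averaged 8597 ± 547 CPM in males and 8179 ± 1022 CPM in females (0.07 ± 0.08). The largest difference was that of miR-92b, which averaged 160 ± 18.7 CPM in males and 132 ± 33.2 CPM in females (0.28 ± 0.15, adjusted p = 0.4995), the lowest female being control 4. Without that library the difference of miR-92b was 0.19, that of miR-363 -0.06, that of miR-32 -0.09 and that of miR-92a 0.03. miR-32 was below every female in 4 of 7 males (-0.12 ± 0.07, adjusted p = 0.4995).

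The miRNAs cut from the same primary transcripts as members, such as miR-17, miR-19b and miR-20a of the miR-17-92 cluster, known for driving cell proliferation, were followed as a list. Its entries share transcripts and include both arms of some hairpins, so they are not independent. In liver 15 of 15 were lower in LOS than in controls, with a median of -0.09, against 266 of 563 and 0.01 over all miRNAs. Of these 15, 0 were called and 1 (miR-19b) had an unadjusted p under 0.05, against 1.24% and 14% of all miRNAs. miR-19b, present in both clusters that make miR-92a, averaged 1299 ± 97.3 CPM in LOS and 1486 ± 66.4 CPM in control livers (-0.19 ± 0.06, adjusted p = 0.131). miR-106b and miR-93, the partners of miR-25, stood at -0.01 ± 0.06 each. In ART livers 14 of 15 were lower than in controls, with a median of -0.03, against 274 of 563 and 0.003 over all miRNAs. Of the 15, 0 were called and 2 had an unadjusted p under 0.05, against 0% and 8.17% of all miRNAs. The LOS and ART comparisons share the controls.

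In kidney 7 of 12 of these miRNAs were lower in LOS, against 211 of 436 over all miRNAs. Of the 12, 0 were called and 0 had an unadjusted p under 0.05, against 0% and 7.57% of all miRNAs. In muscle 8 of 13 were lower with a median of -0.08, against 232 of 439 and -0.01 over all miRNAs. Of the 13, 0 were called and 1 had an unadjusted p under 0.05, against 0% and 13.2% of all miRNAs. That 1 was miR-18b of the X-linked cluster, which averaged 9.61 ± 2.49 CPM in LOS and 14.3 ± 2.66 CPM in control muscle (-0.56 ± 0.21, adjusted p = 0.2997). In tongue 13 of 15 were higher in LOS with a median of 0.06, against 251 of 460 and 0.01 over all miRNAs. There, 15 of 15 were lower in males than in females with a median of -0.09, against 260 of 460 and -0.02 over all miRNAs. In both comparisons 0 were called, as were 0% of all miRNAs, and 0 had an unadjusted p under 0.05. Over all miRNAs the unadjusted share was 5.43% for LOS and 13.5% for sex.

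Among fetuses of the same tissue and group, members went with different miRNAs. Log2 CPM were centred on the mean of each tissue and group, and the 373 other miRNAs listed in all 4 tables were ranked by Pearson correlation over 45 libraries, which share depth and scaling with each other and, in part, their fetus. miR-363 was most like miR-18b (r = 0.58), followed by miR-32 (r = 0.56) and miR-20b (r = 0.55), and 2 of these are its neighbours in the X-linked cluster. Without tongue control 4, miR-18b and miR-20b ranked first and second (r = 0.52 and 0.51). miR-25 was most like miR-101 (r = 0.63), miR-532 and miR-188, and of its cluster partners miR-106b-3p ranked 5 of 373 (r = 0.54), miR-106b 19 (r = 0.45) and miR-93 113 (r = 0.20). Without tongue control 4 it was most like miR-6524 (r = 0.62), and the partners had r = 0.49, 0.41 and 0.15.

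For miR-92a the guide strands of the miR-17-92 cluster ranked lower. Its correlation was -0.06 with miR-17-5p, -0.26 with miR-18a, 0.01 with miR-19a, -0.04 with miR-19b and 0.04 with miR-20a. Without tongue control 4 these were 0.05, -0.05, 0.19, 0.18 and 0.12. The passenger miR-17-3p ranked 47 of 373 (r = 0.41), and 6 of 373 without that library (r = 0.51). It was most like miR-2284w-3p (r = 0.69, and 0.59 without that library), miR-2285bf and miR-128. miR-92b was most like miR-186 (r = 0.86), miR-191 and miR-423-3p, and without that library r was 0.76 for miR-186. miR-32 was most like miR-15a (r = 0.68), miR-16b and miR-301a, and without tongue control 4 like miR-15a (r = 0.64), miR-26b and miR-16b. Across tissues, where the mean of tissue and group was kept, miR-92a was most like miR-2284w-3p (r = 0.98), miR-25 most like miR-874 (r = 0.95), miR-92b most like miR-30e-3p (r = 0.95), miR-32 most like miR-26b (r = 0.90) and miR-363 most like miR-655 (r = 0.95).

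Tongue control 4 had the lowest miR-92a and miR-92b and the highest miR-25, miR-32 and miR-363 of the 16 tongue libraries. It had 6323 CPM of miR-92a and 66.6 CPM of miR-92b, and the other controls had at least 127 CPM of miR-92b. The reads of miR-92a were 1.90 times those of miR-25 in this library, and 2.54 to 3.32 times in the other tongue libraries. It had 9686419 listed reads, the lowest of the control tongues, and the family held 0.946% of them (95% Wilson interval 0.940% to 0.952%). The correlation of miR-25 with miR-92a among fetuses was 0.15 over all 45 libraries and 0.48 without it, and that of miR-92b with miR-363 was -0.40 and -0.22. These pool unlike tissues. With tongue control 4 kept, miR-25 with miR-92a had r = 0.86 in kidney, 0.89 in muscle, 0.55 in liver and -0.37 in tongue. For miR-92b with miR-363 it was -0.17, -0.39, 0.34 and -0.59 in the same order.

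**Figure D5:**
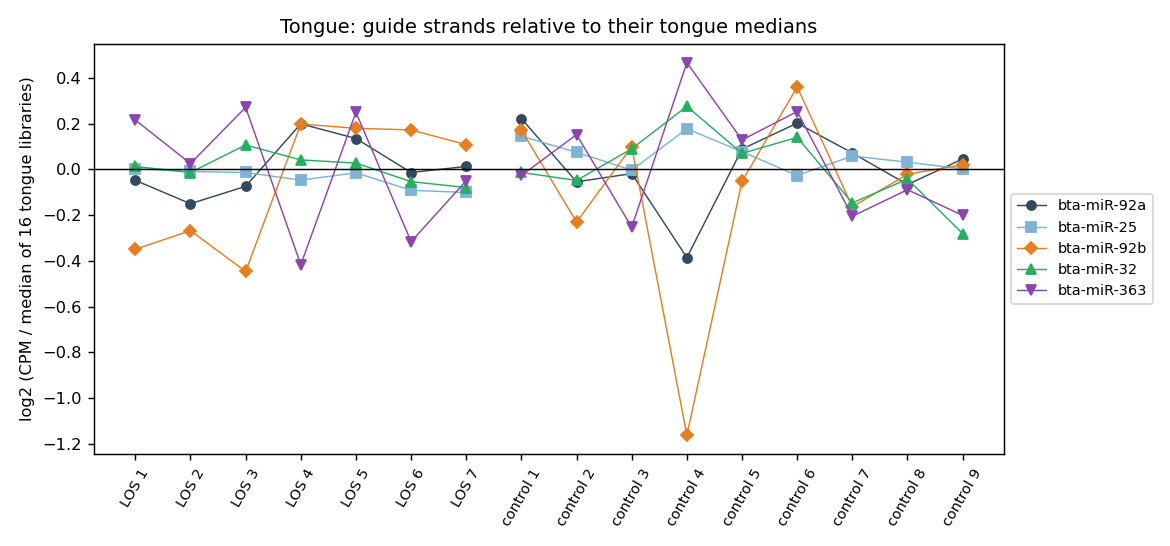
Level of the 5 guide strands in each tongue library relative to the median of the 16 libraries (log2 of the CPM ratio, y axis), LOS 1 to 7 and then control 1 to 9. In control 4 miR-92b and miR-92a are at their lowest while miR-363, miR-32 and miR-25 are at their highest.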

How the data were processed

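Per the labels' protocols, total RNA of frozen tissue was made into libraries with the TruSeq Small RNA kit after selection on a gel. The values that the authors deposited are raw counts of reads, 1 row for each mature miRNA and 1 table for each tissue. Bowtie and the build UMD3.1 are named for all tissues and cutadapt 1.18 for tongue, per the submitters' processing notes, which state no role. Which program counted reads, by what annotation and with what filter is not given in the sources used here. No listed count was 0, and 0 value columns were left unmapped.

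Counts were tested in R 4.3.3 with edgeR 4.0.16 (TMM factors, filterByExpr, quasi-likelihood fit), with p-values adjusted by Benjamini-Hochberg over every miRNA fitted and a call at an adjusted p under 0.05. The SE is the log2 difference divided by the root of F. filterByExpr removed no member. The 3 liver groups shared a fit, and tongue had a term for sex. Log2 CPM for correlations used a prior count of 2. The scripts were tested on simulated data. DESeq2 1.42.0, RLE scaling, no filter, a mean CPM of at least 10, a replicate block, fits with fewer groups and leaving out each library were tried. Leaving out all scaling between tissues was added after seeing the data.

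Members were taken by name, the cluster list from known primary transcripts, and similar miRNAs as the 3 with the highest correlation. The members, lists and tests were chosen with earlier results of these data known. The labels number the fetuses of each tissue, and a number was taken as 1 fetus across tissues, which they do not state outright. Deviations of same-numbered libraries correlated with a median of 0.09 to 0.22 between tissues, and between liver and tongue with values down to -0.36, so the block of the tissue fits rests on this reading. Without the block the same number of members was called. Within a tissue, numbers name different fetuses and do not pair groups. Separate dams or cultures are not stated, so p-values measure the spread between these samples. No 2 libraries of a group were alike within sampling noise (chi-square of at least 23.9 per degree of freedom).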

Additional observations from a re-analysis of the deposited data

Results flagged for a closer look

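Of 58 sets of values of 1 member in 1 group of 4 to 9 fetuses, 2 held a library whose gap to its nearest neighbour took up more of the range than Dixon's 95% limit allows, and chance gives about 1 in 20. miR-32 had 241 CPM in liver ART 3, against 207.9 to 214 CPM in the other ART livers, a gap of 0.8293 of the range and just at the limit. miR-363 had 115 CPM in skeletal muscle control 2, against 98.7 to 101 CPM in the other control muscles, a gap of 0.875 of the range.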

How the results depend on the processing

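Of 1181 single values of members under other settings, 1100 kept their direction and their side of the threshold and 64 changed direction. With the replicate block 0 members were called for LOS or ART within a tissue, as without it, and correlations of same-numbered libraries ran between -0.37 and 0.27. For LOS against control in liver DESeq2 called 2 members, and leaving out a library gave 0 to 1 (1 without LOS 3 and 1 without ART 1). In muscle DESeq2 called 1. The cause was not tested.

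With a mean CPM of at least 10, the LOS difference became -0.0036 for miR-363 in kidney, and 0.00053 for miR-32 and 0.00092 for miR-92a in tongue. In males alone it was 0.027 for miR-32 and 0.015 for miR-363, and in females alone -0.016 for bta-miR-32-3p, 0.017 for miR-92a and -0.013 for miR-92b. Without scaling, tissue differences turned for miR-32 (liver against kidney, 0.61) and, tongue against muscle, for miR-25 (0.24) and miR-363 (0.026). That setting shifts all miRNAs of a library alike. Values relative to their median thus hardly change by construction and are no check on the scaling. For these 3 they were -0.46, -0.14 and -0.35, against -0.47, -0.14 and -0.35 with TMM factors.

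Leaving out 1 library turned the sign of further differences, all with an adjusted p of 0.538 or more. LOS against control ranged between -0.041 and 0.025 for miR-32 and -0.061 and 0.010 for miR-92b in liver. In kidney it ranged between -0.026 and 0.17 for bta-miR-32-3p, -0.071 and 0.092 for miR-363 and -0.012 and 0.065 for miR-92a. In tongue it ranged between -0.034 and 0.029 for miR-32, -0.040 and 0.073 for bta-miR-32-3p, -0.089 and 0.046 for miR-363, -0.048 and 0.037 for miR-92a and -0.061 and 0.089 for miR-92b. ART against control ranged between -0.073 and 0.014 for miR-32 and -0.17 and 0.051 for miR-363. LOS against ART ranged between -0.23 and 0.043 for bta-miR-25-5p, -0.017 and 0.064 for miR-32, -0.071 and 0.12 for bta-miR-32-3p and -0.034 and 0.39 for bta-miR-92a-1-5p. Depth limits the passenger strands and miR-363 in kidney, at 125 to 244 reads.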
